A study of Arabidopsis thaliana with 21 samples.

Results

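Transcripts of 9 genes known for patterning the root tip were followed in imbibing seeds of Arabidopsis thaliana. The genes were chosen by locus: SHR (AT4G37650), SCR (AT3G54220), SCL3 (AT1G50420), JKD (AT5G03150), MGP (AT1G03840), PLT1 (AT3G20840), PLT2 (AT1G51190), PLT3 (AT5G10510) and BBM (AT5G17430), 9 of the 37336 genes in each count file. All 9 were among the 19298 genes that passed the filter on low counts. The rule names the loci and uses no measured value of them, but the genes were chosen with earlier results of these data known.

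SHR and SCR encode GRAS family transcription factors. SHR protein is made in the central tissue of the root and moves outward by a cell layer, where it activates SCR and, with it, the divisions that set up cortex and endodermis. The zinc finger proteins JKD and MGP bind both factors and bound the reach of SHR, and SCL3 is a GRAS gene downstream of SHR that also acts in gibberellin signalling. The PLT genes and BBM encode AP2 factors that act redundantly, in a graded fashion, to specify the root stem cell niche, and BBM is also known from embryos.

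The libraries came from wild-type (WT) seeds kept under long days. There were 7 groups: dry seeds, and imbibed seeds after 6, 16 and 24 h, with plain water or with ethylene, the gaseous hormone that promotes germination. The labels give no treatment for the water groups, no ethylene concentration and no seed age. Each group held 3 libraries, which the design text calls biological replicates without saying whether they came from separate seed lots.

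Gene counts per library ranged from 11687098 to 21198649. The library labelled ethylene 16 h replicate 2 stood apart from its group. Across genes, its log2 levels had a Pearson r of 0.9973 to 0.9979 with libraries from water at 16 h but only 0.8994 to 0.9046 with its own group. The rule that names the loci also leaves this library out, as one that matches water. It is therefore not in the values below (ethylene 16 h n = 2), and calls of the 9 genes that it ends or starts are also given with it. As a description, 8 of the 9 genes were nearer the water 16 h mean in this library and 7 were within the water 16 h range. Levels are CPM, the gene's share of the library's counts, scaled by the TMM method, in which 1 factor per library corrects for RNA composition, and CPM per kb of exon where genes are compared.

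Per kb of exon, PLT3 was the most abundant of the 9 genes in 6 of the 7 groups and SCR in the seventh. In dry seeds PLT3 was at 72.8 CPM per kb and SCL3 at 31.6 CPM per kb, 63.7% and 27.7% of the summed level of the 9 genes. BBM was at 4.35, SCR at 3.25 and JKD at 1.61 CPM per kb, and the levels of MGP, PLT2 and PLT1 were between 0.162 and 0.272 CPM per kb. SHR had 0 reads in the dry libraries. After 24 h in water PLT3 and SCL3 still held 51.6% and 31.4% of the summed level. After 24 h with ethylene SCR was at 14.3, PLT3 at 13.6, SCL3 at 7.34 and SHR at 6.31 CPM per kb.

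**Figure D1:**
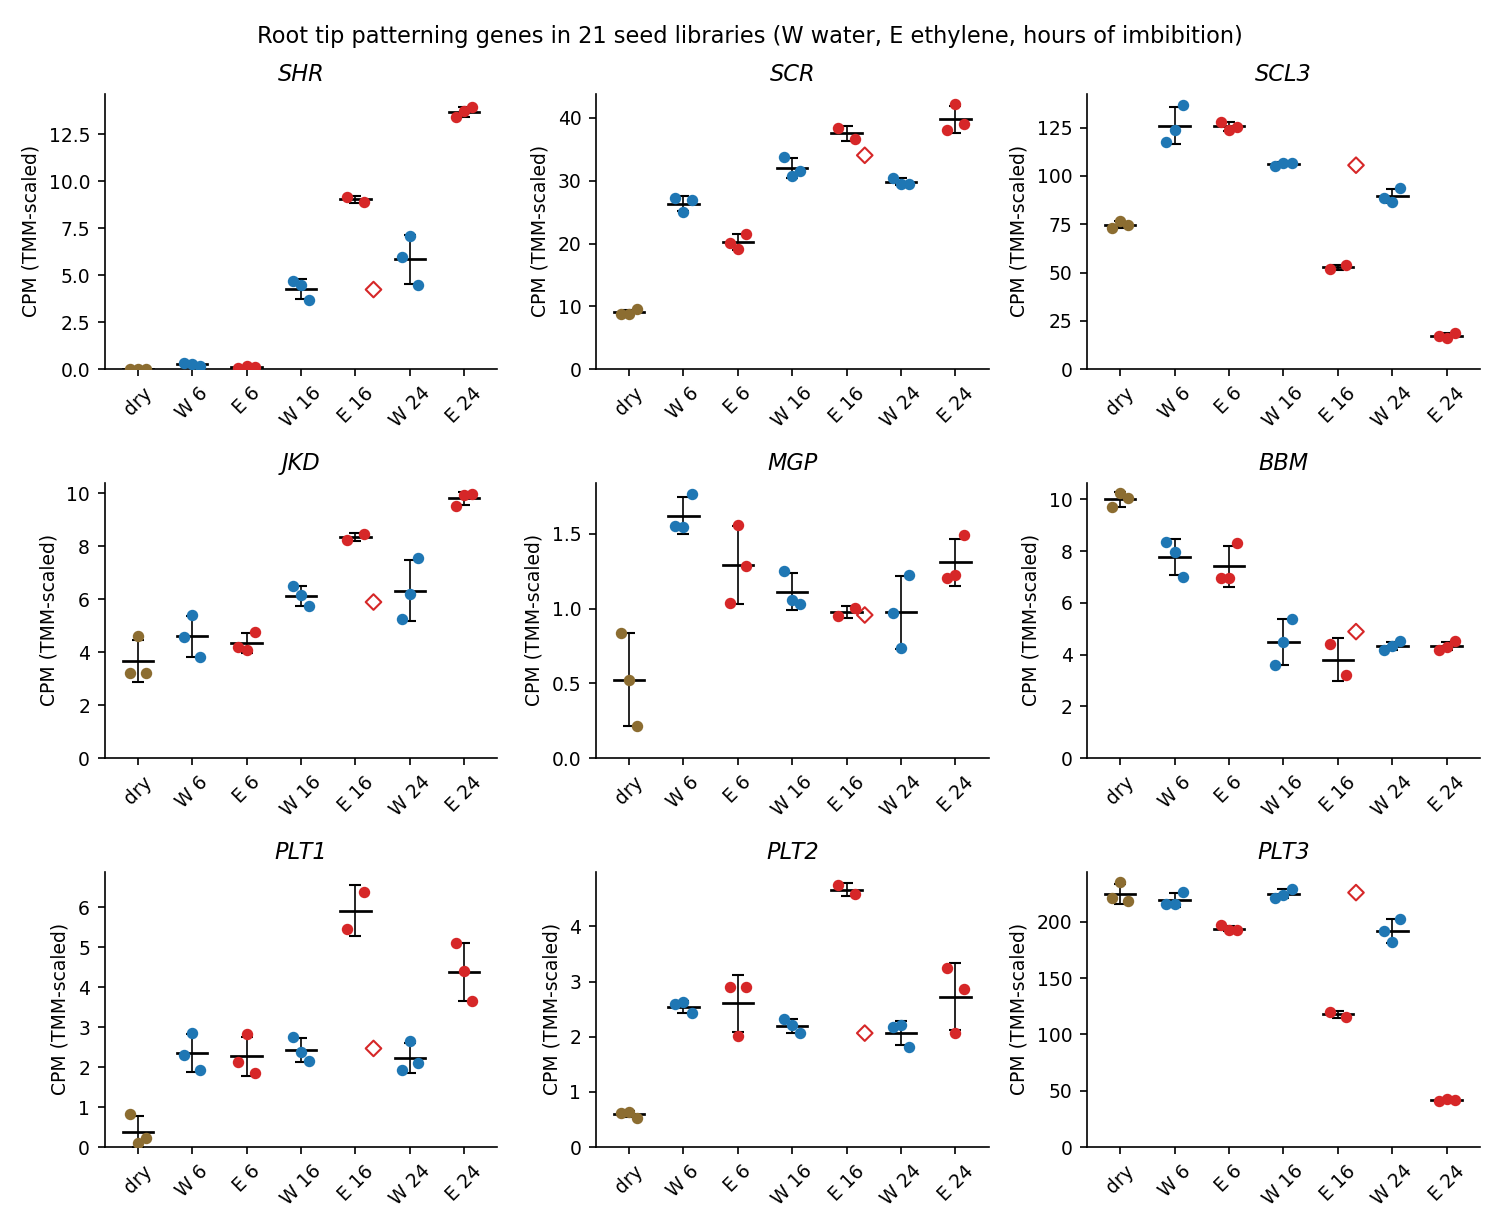
TMM-scaled CPM (vertical axes, each from 0) of the 9 genes in the 7 groups, with 1 point per library, a bar at the group mean and whiskers of 1 SD. The open diamond is the library labelled ethylene 16 h replicate 2, which is in no mean; SHR, PLT1 and PLT2 are higher, and PLT3 and SCL3 lower, in the other ethylene 16 h libraries than in water at 16 h.

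Ethylene was compared with water at each time to ask how the hormone treatment altered transcript levels. SHR, PLT1, PLT2, JKD and SCR were higher with ethylene at 16 and 24 h, while PLT3 and SCL3 were lower, at 24 h by 4.59-fold and 5.17-fold. BBM and MGP did not pass the test at any of the 3 times. At 6 h only SCR and PLT3 passed, and both were lower with ethylene. Calls are at an adjusted p under 0.05 in edgeR's quasi-likelihood test.

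At 6 h 0 of the 9 genes were called higher and 2 lower, where 4.54% and 4.34% of all genes tested were called higher and lower. At 16 h 5 were called higher and 2 lower, against 37.6% and 35.4% of all genes. At 24 h the counts were again 5 and 2, against 41.3% and 41.3%. A call in either direction was therefore common among all genes at the later times. The median log2 fold change of all genes moved from 0.03 to 0.29 at 16 h and from 0.00 to 0.35 at 24 h when libraries were scaled by size alone, and 66.5% and 63.7% of all calls were then higher, against 51.6% and 50% with TMM. All 7 calls at each of these times kept their direction under TMM, relative log expression and library size scaling.

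**Figure D2:**
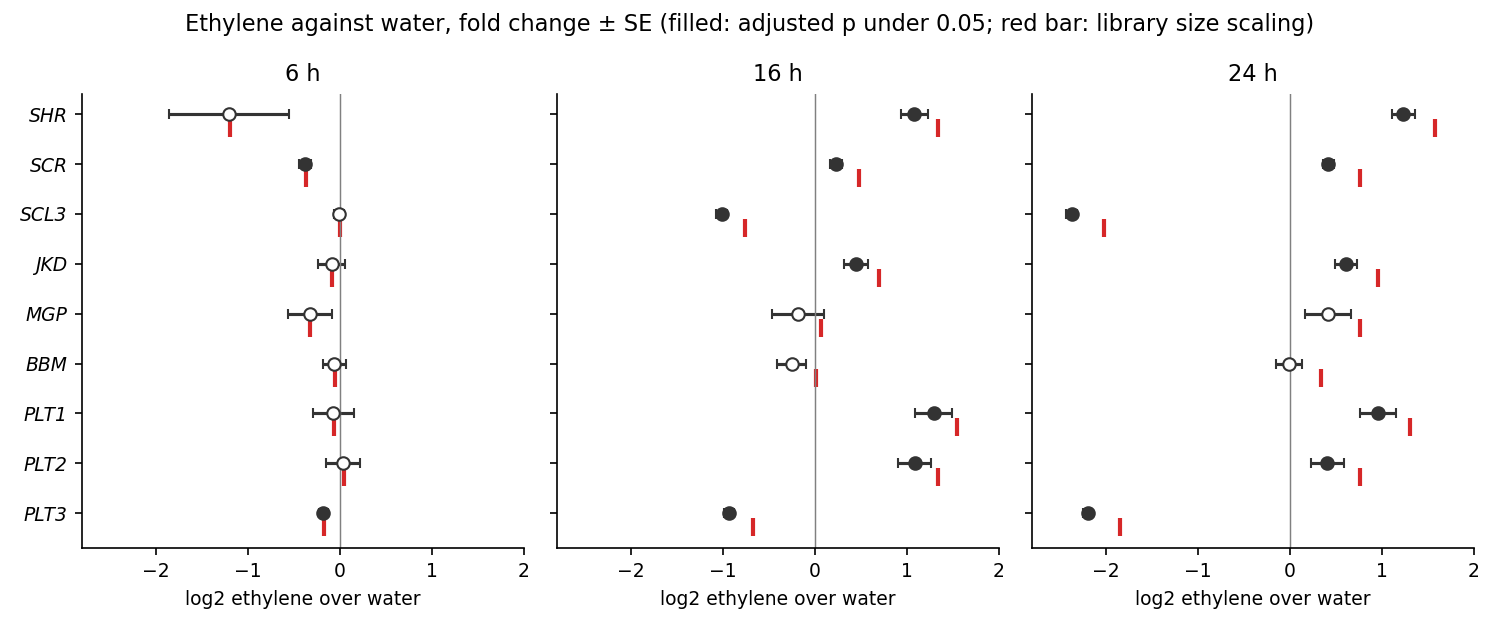
Log2 fold change of ethylene over water (horizontal axis) for each gene at 6, 16 and 24 h with its SE. Filled points have an adjusted p under 0.05 and red bars give the value under library size scaling; PLT3 and SCL3 are left of 0 at 16 and 24 h under both.

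SHR, the mobile factor upstream of SCR, went from no reads in dry seeds to the fourth rank per kb at 24 h with ethylene. The water libraries were at 0.296, 0.281 and 0.151 CPM at 6 h, at 4.67, 4.49 and 3.67 CPM at 16 h and at 5.97, 7.08 and 4.46 CPM at 24 h. With ethylene they were at 0.0519, 0.151 and 0.0951 CPM at 6 h, at 9.18 and 8.91 CPM at 16 h and at 13.4, 13.7 and 14 CPM at 24 h. Every ethylene library was above every water library at 16 and 24 h. The log2 difference was 1.08 ± 0.15 (± SE, adjusted p = 7.8e-08) at 16 h and 1.23 ± 0.13 (adjusted p = 1.85e-10) at 24 h. At 6 h SHR rested on 6 counts with ethylene and 13 in water, a difference that did not pass (adjusted p = 0.338). The library labelled ethylene 16 h replicate 2 was at 4.23 CPM, and with it the log2 difference at 16 h was 0.80 (adjusted p = 0.0195).

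SCR, the partner that retains SHR in the nucleus of the next cell layer, differed less. Dry libraries were at 8.76, 8.78 and 9.53 CPM. Water libraries were at 27.2, 25 and 26.9 CPM at 6 h, 33.7, 30.7 and 31.6 CPM at 16 h and 30.5, 29.5 and 29.4 CPM at 24 h. Ethylene libraries were at 20, 19.1 and 21.5 CPM at 6 h, 38.4 and 36.7 CPM at 16 h and 38.1, 42.2 and 39.1 CPM at 24 h. The groups did not overlap at any time, but the order differed, with ethylene below water at 6 h and above it later. The log2 difference was -0.38 ± 0.07 (adjusted p = 7.8e-05) at 6 h, 0.23 ± 0.06 (adjusted p = 0.00147) at 16 h and 0.42 ± 0.06 (adjusted p = 6.51e-08) at 24 h. With the library labelled ethylene 16 h replicate 2, at 34.1 CPM, the difference at 16 h was 0.18 (adjusted p = 0.0388).

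SCL3 showed the opposite direction to SHR and SCR. Dry libraries were at 73.1, 76.7 and 74.8 CPM. In water the libraries were at 118, 124 and 137 CPM at 6 h, 105, 107 and 107 CPM at 16 h and 88.5, 86.7 and 93.8 CPM at 24 h. With ethylene they were at 128, 124 and 125 CPM at 6 h, 51.8 and 53.7 CPM at 16 h and 17.4, 16.1 and 18.6 CPM at 24 h. The groups overlapped at 6 h and were far apart at 24 h. The log2 difference was -0.01 ± 0.05 (adjusted p = 0.99) at 6 h, -1.01 ± 0.06 (adjusted p = 2.24e-16) at 16 h and -2.37 ± 0.06 (adjusted p = 8.04e-27) at 24 h. The library labelled ethylene 16 h replicate 2 was at 106 CPM, and with it the difference at 16 h was -0.61 (adjusted p = 0.0139).

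Of the zinc finger genes, JKD was higher with ethylene from 16 h and MGP was not called. JKD was at 6.13 ± 0.39 CPM (mean ± SD, n = 3) in water and at 8.23 and 8.47 CPM with ethylene at 16 h, and at 6.33 ± 1.16 and 9.81 ± 0.245 CPM (n = 3 each) at 24 h. Neither pair of groups overlapped. Log2 differences were 0.45 ± 0.13 (adjusted p = 0.0034) and 0.61 ± 0.12 (adjusted p = 3.05e-05). The call at 16 h ended when replicate 2 was kept (0.29, adjusted p = 0.144). MGP had 2 to 40 counts per library. Its log2 differences were -0.33 ± 0.24 at 6 h, -0.18 ± 0.28 at 16 h (0.07 under library size scaling) and 0.42 ± 0.25 at 24 h, with adjusted p-values of 0.538, 0.565 and 0.128. At 24 h MGP was called higher by DESeq2 (log2 0.65, adjusted p = 0.0383) and under relative log expression (0.65, adjusted p = 0.0185) and library size scaling (0.77, adjusted p = 0.0063).

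PLT1 and PLT2, the pair best known for the root stem cell niche, were both at low levels and highest at 16 h with ethylene. PLT1 was at 2.75, 2.37 and 2.15 CPM in water and at 5.46 and 6.38 CPM with ethylene at 16 h, and at 1.94, 2.65 and 2.11 against 5.11, 4.41 and 3.66 CPM at 24 h. PLT2 was at 2.31, 2.22 and 2.06 against 4.75 and 4.59 CPM at 16 h, and at 2.18, 2.21 and 1.81 against 3.24, 2.06 and 2.87 CPM at 24 h. The groups overlapped for PLT2 at 24 h and in no other of these comparisons.

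The log2 difference of PLT1 was 1.29 ± 0.20 (adjusted p = 5.98e-07) at 16 h and 0.95 ± 0.20 (adjusted p = 4.76e-05) at 24 h. That of PLT2 was 1.09 ± 0.18 (adjusted p = 1.84e-06) and 0.41 ± 0.18 (adjusted p = 0.0392). The PLT2 call at 24 h was lost without ethylene 24 h replicate 1 (0.28, adjusted p = 0.197) or replicate 3 (0.39, adjusted p = 0.0784) and without water 24 h replicate 3 (0.31, adjusted p = 0.174). It was also lost with no filter on low counts (adjusted p = 0.0585) and in a fit of the 2 groups alone (adjusted p = 0.0639). With the library labelled ethylene 16 h replicate 2, which held 2.47 CPM of PLT1 and 2.07 CPM of PLT2, the differences at 16 h were 0.98 (adjusted p = 0.0217) and 0.80 (adjusted p = 0.0189), and that of PLT2 at 24 h no longer passed (adjusted p = 0.156). At 6 h both genes overlapped between the groups, with log2 differences of -0.07 ± 0.22 and 0.04 ± 0.18.

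PLT3, which shares much of its function with PLT1 and PLT2, moved the other way. Dry libraries were at 221, 235 and 218 CPM. Water libraries were at 216, 215 and 227 CPM at 6 h, 221, 224 and 229 CPM at 16 h and 191, 182 and 203 CPM at 24 h. Ethylene libraries were at 197, 193 and 193 CPM at 6 h, 120 and 115 CPM at 16 h and 41, 42.8 and 41.7 CPM at 24 h. The groups did not overlap at any of the 3 times. The log2 difference was -0.18 ± 0.05 (adjusted p = 0.0104) at 6 h, -0.93 ± 0.05 (adjusted p = 9.93e-17) at 16 h and -2.20 ± 0.05 (adjusted p = 6.54e-28) at 24 h. The call at 6 h was lost without water 6 h replicate 3 (-0.16, adjusted p = 0.0697). With the library labelled ethylene 16 h replicate 2, at 226 CPM, the difference was -0.56 at 16 h (adjusted p = 0.0148), and the call at 6 h was lost.

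With TMM, BBM was highest in dry seeds, at 9.69, 10.2 and 10.1 CPM. Under library size scaling its mean was 5.13 CPM in dry seeds, below 8.05 CPM in water and 7.69 CPM with ethylene at 6 h. With TMM, BBM at 24 h was at 4.19, 4.33 and 4.51 CPM in water. It was at 4.18, 4.3 and 4.52 CPM with ethylene, and the groups overlapped almost fully. The log2 differences between ethylene and water were -0.06 ± 0.13 at 6 h, -0.25 ± 0.16 at 16 h and -0.01 ± 0.14 at 24 h (adjusted p = 0.887, 0.155 and 0.951). Under library size scaling the value at 24 h was 0.34 (adjusted p = 0.0282). At 16 h BBM was called lower without ethylene 16 h replicate 1 (-0.51, adjusted p = 0.024) or water 16 h replicate 1 (-0.39, adjusted p = 0.0333).

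Ratios between genes within a library do not depend on the scaling factor. Per kb, PLT3 made up 93.8% ± 0.228 (SD, n = 3) of the summed PLT1, PLT2, PLT3 and BBM reads in dry seeds, 94.3% ± 0.564 (n = 3) at 24 h in water, 85.9% and 86% in the ethylene 16 h libraries and 73.2% ± 2 (n = 3) at 24 h with ethylene. PLT1 and PLT2 together made up 2.84% ± 0.463 at 24 h in water and 16.6% ± 2.34 with ethylene (n = 3 each). BBM made up 2.87% ± 0.113 and 10.2% ± 0.522, although its CPM overlapped between these groups. The library labelled ethylene 16 h replicate 2 had 94.7% PLT3, inside the water 16 h range.

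SCL3 over SCR, per kb, was 9.76 ± 0.527 in dry seeds, 3.53 ± 0.182 at 24 h in water and 0.514 ± 0.0587 at 24 h with ethylene (n = 3 each). SCR thus exceeded SCL3 per kb in each ethylene 24 h library and in no library of the other groups. The ratio of SCR to SHR was 4.14 ± 0.959 in water and 2.27 ± 0.118 with ethylene at 24 h (n = 3 each), ranges that did not overlap. PLT1 over PLT2 was 1.03 ± 0.161 and 1.58 ± 0.417 at 24 h (n = 3 each). No test was run on the ratios.

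**Figure D3:**
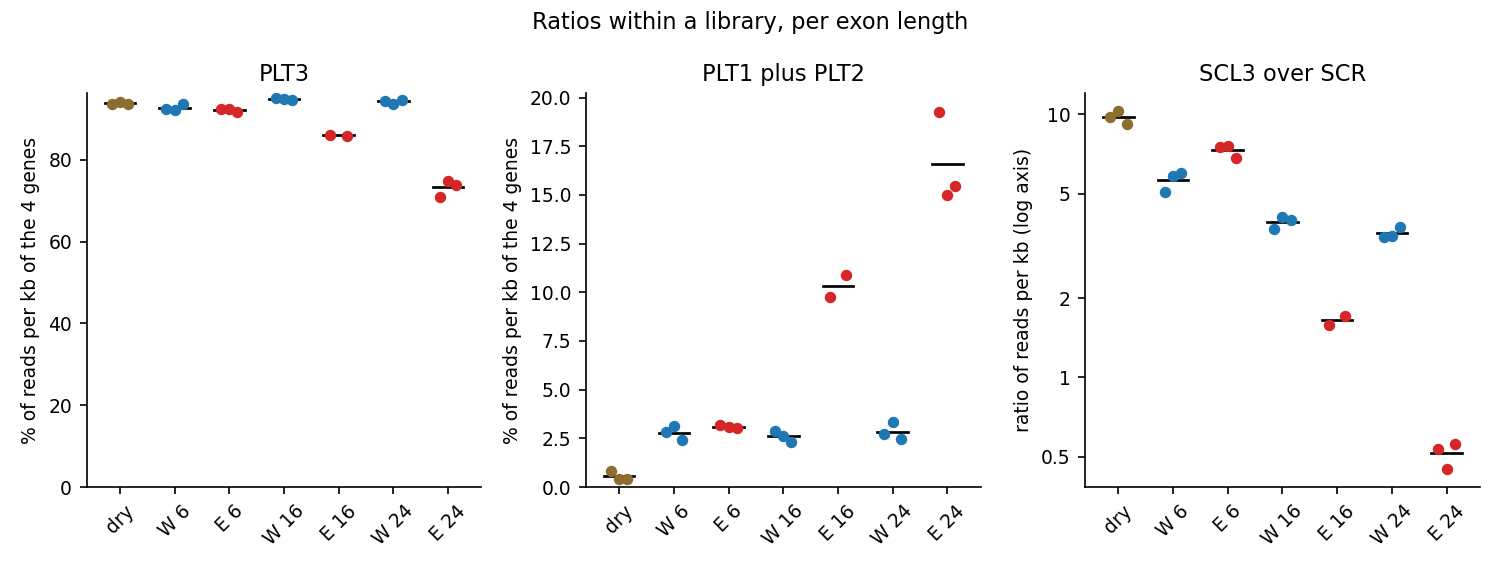
Share of PLT3, share of PLT1 plus PLT2 (vertical axes in % of the summed reads per kb of PLT1, PLT2, PLT3 and BBM, from 0) and ratio of SCL3 to SCR per kb (log axis), with 1 point per library and a bar at the group mean. The ethylene 24 h libraries have the lowest PLT3 share, the highest PLT1 plus PLT2 share and SCL3 to SCR ratios under 1.

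Imbibition in water was followed from dry seeds on. From dry to 6 h 6 of the 9 genes were called higher and 1 lower, against 40.6% and 34.5% of all genes. SCR rose by 1.54 ± 0.09 on the log2 scale, PLT1 by 2.60 ± 0.41, PLT2 by 2.08 ± 0.31, MGP by 1.62 ± 0.36 and SCL3 by 0.75 ± 0.06. The dry groups of PLT1, PLT2 and MGP held only 11, 17 and 15 counts, and the dry PLT1 libraries were at 0.105 to 0.834 CPM. Leaving out 1 library gave 2.15 to 3.85 for PLT1, 2.01 to 2.12 for PLT2 and 1.25 to 2.12 for MGP, all still called. SHR went from 0 to 13 counts over the group, at least 2.26-fold higher when the dry group is set to 3 counts in all. BBM fell by 0.37 ± 0.14 on the log2 scale, and PLT3 (-0.03 ± 0.05) and JKD (0.33 ± 0.18) did not pass.

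These directions depended on scaling for BBM and PLT3. The TMM factors of the dry libraries were the lowest of all, and the median log2 change of all genes was 0.10 with TMM and 1.11 with library size scaling. Under library size scaling 9 of the 9 genes were called higher, where 13120 of all 19298 genes were called higher and 2920 lower. The values were 0.98 for PLT3, 0.64 for BBM and 1.33 for JKD. Of all calls 81.8% were then higher, against 54.1% with TMM. PLT3 was called lower under relative log expression scaling (-0.16, adjusted p = 0.00322). Without water 6 h replicate 3 the BBM call was lost (-0.30, adjusted p = 0.0762) and JKD was called (0.45, adjusted p = 0.0296), and JKD was also called without dry replicate 2 (0.52, adjusted p = 0.024).

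From 6 to 16 h in water 3 of the 9 genes were called higher and 3 lower, against 38.9% and 37.3% of all genes. SHR rose by 4.13 ± 0.28 on the log2 scale, JKD by 0.41 ± 0.14 and SCR by 0.28 ± 0.06. BBM fell by 0.78 ± 0.13, SCL3 by 0.25 ± 0.05 and MGP by 0.54 ± 0.24 (adjusted p = 0.044). PLT1, PLT2 and PLT3 were at 0.03, -0.21 and 0.04 and did not pass. Keeping the library labelled ethylene 16 h replicate 2 ended the calls of SCL3 (-0.25, adjusted p = 0.224) and MGP (-0.54, adjusted p = 0.0582). This MGP call was lost in 9 of 10 other settings, among them DESeq2 (adjusted p = 0.0926) and a replicate block (adjusted p = 0.0509), and also without any 1 of water 6 h replicates 1, 2 and 3 or water 16 h replicates 2 and 3 (-0.60 to -0.49). JKD was not called without water 6 h replicate 3 (0.26, adjusted p = 0.125).

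From 16 to 24 h in water 1 gene was called higher and 2 lower, against 24.4% and 20.1% of all genes. SHR rose by 0.45 ± 0.15 on the log2 scale, PLT3 fell by 0.23 ± 0.05 and SCL3 fell by 0.24 ± 0.05. The SHR call was lost without water 16 h replicate 3 (0.34, adjusted p = 0.0905) or water 24 h replicate 2 (0.25, adjusted p = 0.23). None of the 3 was called once the library labelled ethylene 16 h replicate 2 entered the fit (adjusted p = 0.255 for SHR, 0.38 for PLT3 and 0.377 for SCL3). The other 6 genes were between -0.19 and 0.07.

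Seeds kept with ethylene were compared between times in the same way. From 6 to 16 h 5 genes were called higher and 3 lower, against 39.6% and 41.2% of all genes. SHR rose by 6.42 ± 0.29 on the log2 scale from a group of 6 counts, PLT1 by 1.39 ± 0.20, JKD by 0.94 ± 0.14, SCR by 0.89 ± 0.07 and PLT2 by 0.84 ± 0.17. SCL3 fell by 1.25 ± 0.06, BBM by 0.97 ± 0.15 and PLT3 by 0.72 ± 0.05, and MGP did not pass (-0.40 ± 0.27). Of all calls 49% were higher with TMM and 61.9% with library size scaling, and the 8 calls kept their direction under each scaling. With the library labelled ethylene 16 h replicate 2 the PLT2 and PLT3 calls were lost (0.55, adjusted p = 0.0579, and -0.35, adjusted p = 0.0691).

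From 16 to 24 h with ethylene 1 gene was called higher and 4 lower, against 28.8% and 41.1% of all genes. SHR rose by 0.60 ± 0.13 on the log2 scale. SCL3 fell by 1.60 ± 0.07, PLT3 by 1.49 ± 0.05, PLT2 by 0.77 ± 0.16 and PLT1 by 0.43 ± 0.17 (adjusted p = 0.0296). The PLT1 call was lost without ethylene 16 h replicate 3 (-0.31), ethylene 24 h replicate 2 (-0.42) or replicate 3 (-0.30), and in 7 of 10 other settings, among them DESeq2 (-0.24, adjusted p = 0.295) and library size scaling (-0.35, adjusted p = 0.0822). Under relative log expression scaling 5 genes were called higher and 3 lower, where 7331 of all 19298 genes were called higher and 5551 lower. SCR at 0.27, JKD at 0.42, BBM at 0.38 and MGP at 0.60 were then called higher. Of all calls 56.9% were higher, against 41.2% with TMM. With the library labelled ethylene 16 h replicate 2 PLT1 and PLT2 were not called (-0.12 and -0.48) and JKD was (0.39, adjusted p = 0.0445).

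Group means were also put in order for each gene. The place of dry seeds in it depended on scaling. For SCL3 every neighbouring pair of group means from ethylene 6 h down to ethylene 24 h differed past the threshold, and water 6 h and ethylene 6 h at the top did not. Under library size scaling dry seeds were at 38.4 CPM of SCL3 and 115 CPM of PLT3, below ethylene 16 h at 67.6 and 151 CPM. With TMM, for PLT3 water 16 h, dry and water 6 h formed a top set whose neighbours did not differ (adjusted p = 1.0 and 0.525), followed by ethylene 6 h and water 24 h (adjusted p = 0.769), ethylene 16 h and ethylene 24 h. For SHR water 6 h and ethylene 6 h did not differ (adjusted p = 0.338), the 6 counts of ethylene 6 h against 0 in dry seeds are too few to place that pair, and the other neighbours passed. For SCR ethylene 24 h and ethylene 16 h did not differ (adjusted p = 0.211), nor did water 16 h and water 24 h (adjusted p = 0.162).

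Whether the difference between ethylene and water changed from one time to the next was tested as an interaction. From 6 to 16 h 5 of the 9 genes had a higher difference and 2 a lower one, against 28.6% and 30.9% of all genes. From 16 to 24 h 0 had a higher difference and 3 a lower one, against 10.7% and 30% of all genes. PLT3 and SCL3 were among the lower ones at both steps, so their deficit with ethylene grew at each step. PLT2 had a higher difference at the former step and a lower one at the latter. Its latter call was lost in 7 of 11 fits that left out 1 library, namely ethylene 16 h replicate 1 or 3, ethylene 24 h replicate 2, water 16 h replicate 2 or 3 or water 24 h replicate 1 or 2, with values of -0.69 to -0.49. It was also lost in 9 of 10 other settings, among them DESeq2 (-0.53, adjusted p = 0.171), relative log expression (-0.53) and library size scaling (-0.58). The call of JKD at the former step (0.53, adjusted p = 0.0215) was lost without ethylene 16 h replicate 3 (0.50, adjusted p = 0.063) or water 6 h replicate 2 (0.39, adjusted p = 0.123). SCR at the latter step (0.19, adjusted p = 0.0759) was called without ethylene 24 h replicate 1 (0.24, adjusted p = 0.0344) and under relative log expression (0.34) and library size scaling (0.28). Of all calls at the former step 48% were higher with TMM and 65.3% with library size scaling, and at the latter 26.4% with TMM, 47.4% with relative log expression and 38.5% with library size scaling. With the library labelled ethylene 16 h replicate 2 only SCR was called at the former step (0.56, adjusted p = 0.0125), and PLT3 and SCL3 at the latter (-1.63 and -1.75).

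Other root patterning genes were taken from 9 lists with 57 genes, of which 47 were tested. At 6 h 1 was called higher and 4 lower, at 16 h 25 and 5, and at 24 h 23 and 14. Under library size scaling the counts were 34 and 4 at 16 h and 32 and 11 at 24 h. With TMM the shares of all genes called were 4.54% higher and 4.34% lower at 6 h. They were 37.6% and 35.4% at 16 h, and 41.3% each way at 24 h. Under library size scaling 9462 of all 19298 genes were called higher and 4768 lower at 16 h, and 10202 and 5803 at 24 h. The list counts were also taken with the library labelled ethylene 16 h replicate 2 kept, and were then 15 and 4 at 16 h and 19 and 13 at 24 h. Root epidermis genes were called higher in 5 of 5 at 16 h and in 4 of 5 at 24 h, with medians of 0.84 and 0.82, where 37.6% and 41.3% of all genes were called higher. With that library kept 2 of 5 were called at 16 h. WER, a MYB factor of hairless root epidermis cells, was at 6.69 ± 0.452 (n = 2) against 0.997 ± 0.286 CPM (n = 3) at 16 h and at 16.9 ± 0.554 against 2.79 ± 0.522 CPM at 24 h (n = 3 each). That was 6.75-fold and 6.08-fold higher with ethylene. CPC, a mobile MYB factor that promotes root hair fate, was 2.11-fold higher at 24 h.

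Genes of the stem cell niche and root cap were called higher in 3 of 5 tested at 16 h and 4 of 5 at 24 h, and lower in 0, against the same 37.6% and 41.3% of all genes. With that library kept the count at 16 h was 1. FEZ and SMB, NAC factors that set root cap divisions and cap maturation, were 2.82-fold and 2.07-fold higher at 16 h, and FEZ was not called with that library kept (log2 1.15, adjusted p = 0.0577). BRN1 and BRN2, NAC factors of the maturing cap, were 7.45-fold and 3.42-fold higher at 24 h, at 1.17 ± 0.284 and 0.468 ± 0.127 CPM with ethylene (n = 3). WOX5, the niche organizer gene, had 35 reads in 20 libraries and CLE40 had 10, and neither was tested.

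The close relatives of the 9 genes did not share a direction, and at 24 h 41.3% of all genes were called each way. Among 4 AINTEGUMENTA-like genes 2 were called higher and 2 lower at 24 h, with ANT, a regulator of organ growth, 2.36-fold higher and AIL7 2.24-fold lower. Among 8 zinc finger relatives of JKD and MGP 2 were called higher and 5 lower at 24 h (median -1.02, where the median of all genes was 0.00). IDD1, a promoter of germination, was at 20.5 ± 0.791 with ethylene against 199 ± 7.42 CPM in water at 24 h (n = 3 each), 9.71-fold lower, and 4.3-fold lower at 16 h. IDD7 was 2.65-fold lower at 24 h. Of 5 GRAS relatives and cell cycle partners of SHR and SCR 1 was called higher and 3 lower at 24 h, among them GAI, a DELLA repressor of gibberellin responses (2.04-fold lower).

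Genes of auxin-dependent embryonic root initiation were called higher in 6 of 7 at 16 h and in 4 of 7 at 24 h, with 1 lower at 24 h, against 37.6% of all genes higher at 16 h and 41.3% each way at 24 h. At 16 h 4 were called higher if ethylene 16 h replicate 2 entered the fit. TMO7, a small mobile factor downstream of auxin, was 2.57-fold higher at 24 h, and the zinc finger genes NTT and WIP4 were 2.22-fold and 2.91-fold higher at 16 h. WIP4 was not called without ethylene 16 h replicate 1 (log2 1.39, adjusted p = 0.0558) or with replicate 2 kept (1.25, adjusted p = 0.0542). In the RGF pathway, whose sulfated peptides maintain PLT protein in the root, 3 of 5 tested genes were called higher at 16 h. At 24 h 4 were called higher and 1 lower. With TMM the shares of all genes were the same 37.6% higher at 16 h and 41.3% each way at 24 h. Under library size scaling the counts at 24 h were 5 and 0. They were 4 and 0 under relative log expression scaling and with replicate 2 kept. RGF2 had 50 counts with ethylene and 3 in water at 24 h, which is 10.6-fold (95% exact interval of the counts, 3.43 to 53.2, counting error only). The HD-ZIP III genes, which pattern vascular tissue, had 2 called higher and 2 lower of 5 at 24 h, against 41.3% of all genes each way. The counts were 3 and 0 under library size scaling and 0 and 2 with replicate 2 kept. At 16 h 2 were called higher and 0 lower, against 37.6% and 35.4% of all genes. With replicate 2 kept 0 were called at 16 h. Under library size scaling 5 were called higher at 16 h, where 9462 of all 19298 genes were called higher and 4768 lower. For endodermis differentiation 3 of 8 genes were tested. By edgeR with TMM 2 were called higher at 16 h, against 37.6% of all genes, and 1 with replicate 2 kept. At 24 h 0 were called, against the same 41.3% of all genes each way. Under library size scaling 2 were called at 24 h, where 10202 of all 19298 genes were called higher and 5803 lower. MYB36, a regulator of the Casparian strip, was 3.01-fold higher at 16 h but not called without ethylene 16 h replicate 1 (log2 1.42, adjusted p = 0.0555), and CASP1 had 0 reads in all 20 libraries.

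**Figure D4:**
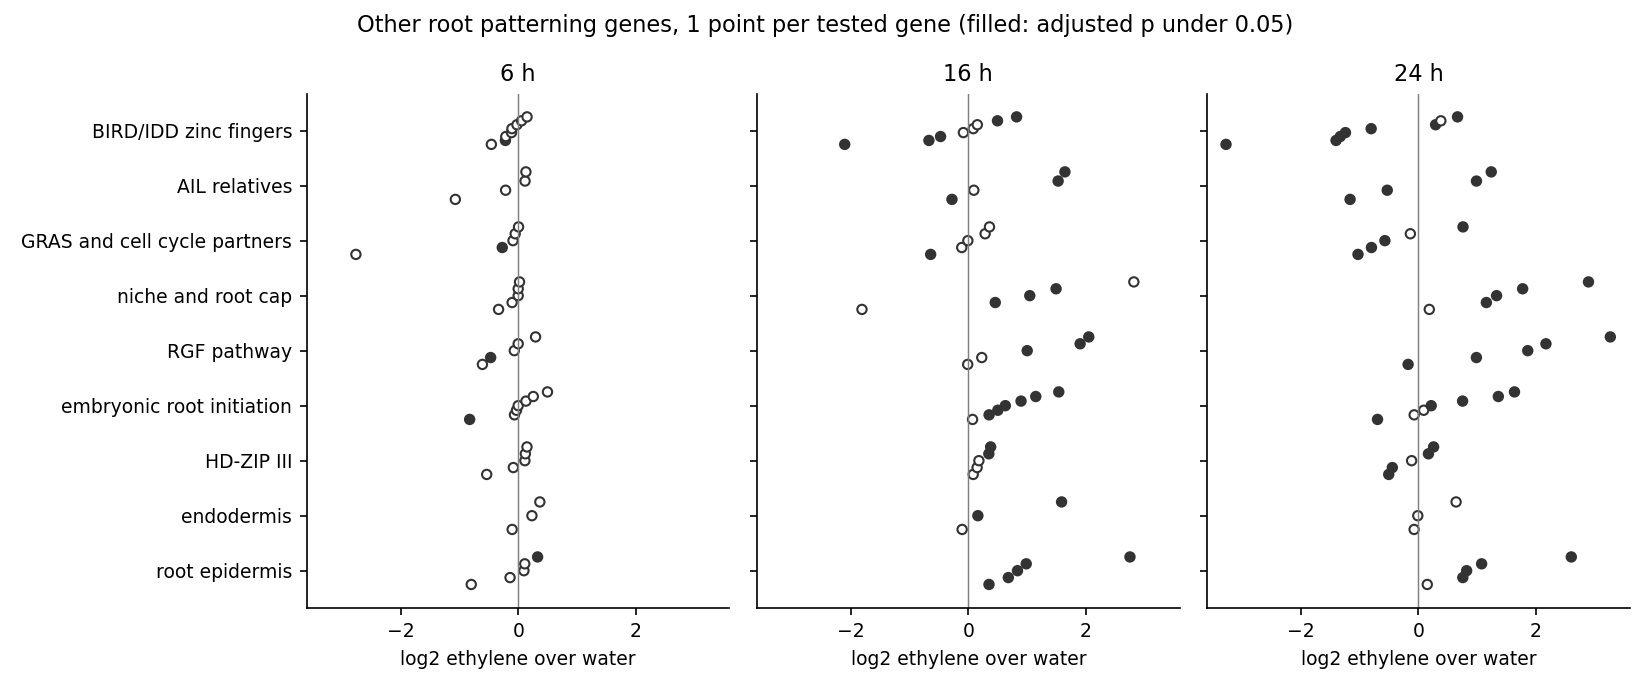
Log2 fold change of ethylene over water (horizontal axis) at 6, 16 and 24 h for the tested genes of 9 lists, with 1 point per gene, filled where the adjusted p was under 0.05. Most points are near 0 at 6 h, and at 24 h the zinc finger relatives lie mostly left of 0 and the root epidermis genes right of it.

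Some markers of seed reserves and of seed parts also differed between water and ethylene. The summed level of 5 seed reserve genes was 100327 to 110633 CPM at 24 h in water and 508 to 752 CPM with ethylene, and at 16 h it was 70483 to 87238 against 5964 to 7017 CPM. The summed level of 5 endosperm markers was 5324 to 5757 against 1124 to 1339 CPM at 24 h, but the markers did not move together. EPR1 was at 5456 CPM in water and 566 CPM with ethylene, while MAN7 (57.4 and 64.4 CPM) and EXPA2 (88.2 and 569 CPM) were called higher, and the defining markers NAC025 and ZOU had 3 and 1 reads in 20 libraries. The 4 leaf photosynthesis markers summed to 425 to 465 against 1011 to 1121 CPM, nearly all of it RBCS1A. RBCS1A and RBCS1B were called higher, and CAB1 and LHCA1 lower, with CAB1 at 0.934, 0.968 and 19.2 CPM in the water 24 h libraries. The 5 root tip markers summed to 15 to 15.8 against 20.7 to 21.2 CPM, nearly all of it ACR4 and SMB. FEZ was at 0.46 and 1.11 CPM in water and with ethylene, and WOX5 and RGF1 were near the floor. WOX5 had 7 and 13 reads over these groups and RGF1 had 7 and 27. Seed coat markers were at most 4.08 CPM in sum in any library. The part of these shifts in the results on the 9 genes was not tested, and in whole seeds fewer cells of a type and less RNA per cell cannot be told apart.

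Across the 20 libraries, which share groups and times, PLT3 and SCL3 had a Pearson r of 0.952 on log2 levels, JKD and SHR 0.912, PLT1 and PLT2 0.899 and BBM and SHR -0.921. The genes with a symbol whose pattern was most like SHR were emb2394 (r = 0.997) and EMB3137 (r = 0.995), and most like PLT3 were RS31 (r = 0.987) and GSTF3 (r = 0.986). For PLT1 these were the expansin gene EXPA1 and SKS1 (r = 0.966 each), and for SCL3 CYP71 (r = 0.988) and HAF01 (r = 0.985). MGP, at 2 to 40 counts per library, had the weakest nearest pattern (TAS1B, r = 0.868). These correlations describe 20 libraries in 7 groups and used TMM levels only. BBM was highest in dry seeds with TMM but not under library size scaling (5.13 CPM in dry seeds, 8.05 CPM in water at 6 h). Its r under other scalings was not computed.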

How the data were processed

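RNA was sequenced from stranded polyA libraries, per the labels' protocols. Per the submitters' processing notes, the authors counted reads per gene with STAR and the TAIR10 genome. They deposited raw counts for either strand, forward and reverse. The reverse counts, which hold the sense reads of this kit, were used, and 94.3 to 97.4% of reads fell on genes. STAR's summary rows (unmapped, multimapping, no feature, ambiguous) entered no library size or test. Reads that matched several places were not counted on genes, so counts can miss reads of near-identical copies.

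The 20 libraries formed 1 fit in edgeR 4.0.16 (R 4.3.3), using TMM scaling, filterByExpr with a minimum count of 10, the 2-sided quasi-likelihood F test and Benjamini-Hochberg adjustment over 19298 genes at 0.05. SEs are the log2 fold change over the square root of F. The biological coefficient of variation was 0.0466, and 0.177 with the left-out library. The test was checked on simulated data in which few genes differed between ethylene and water at 24 h. That check does not cover scaling where most genes differ.

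The 9 genes, the other lists, the markers and the naming rule were chosen with earlier results of these data known. Of the other lists, up to 3 called genes per direction, at least 2-fold and without overlap, were eligible to be named; loci without a symbol were not named. Symbols and exon lengths came from RefSeq's TAIR10.1 annotation (37051 genes matched). That is another build than TAIR10, so no coordinates or sequences are given and a planned promoter motif search was not run. Likeness is the Pearson r of log2(CPM + 0.5). DESeq2 1.42.0, other scalings, strands, filters, fits, thresholds and leaving out each library were tried.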

Additional observations from a re-analysis of the deposited data

Results flagged for a closer look

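For the change in the difference between ethylene and water, 28.6% of all genes were called higher and 30.9% lower from 6 to 16 h. From 16 to 24 h these shares were 10.7% and 30%. The difference changed between times, by the interaction test in edgeR's quasi-likelihood fit, in 10 cases among the 9 genes. From 6 to 16 h it moved up by 2.29 for SHR (log2 scale, adjusted p = 0.00427), 1.36 for PLT1 (adjusted p = 0.000221), 1.05 for PLT2 (adjusted p = 0.000689), 0.61 for SCR (adjusted p = 6.37e-07) and 0.53 for JKD (adjusted p = 0.0215). It moved by -0.76 for PLT3 (adjusted p = 4.56e-11) and by -1.003 for SCL3 (adjusted p = 6.04e-13). The SHR value rests on 6 and 13 counts at 6 h. Of the calls from 6 to 16 h only that of SCR held with the library labelled ethylene 16 h replicate 2 kept. The JKD call was also lost without ethylene 16 h replicate 3 or water 6 h replicate 2. From 16 to 24 h it moved by -0.68 for PLT2 (adjusted p = 0.0347, lost in 9 of 10 other settings and 7 of 11 fits without 1 library), -1.26 for PLT3 (adjusted p = 1.43e-15) and -1.36 for SCL3 (adjusted p = 1.06e-14). SCR was below water at 6 h and above it at 16 h, and both differences were called.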

How the results depend on the processing

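Of 90 log2 fold changes of the 9 genes, 59 kept their side of the threshold under every alternative, as did 1390 of 1501 alternative values. Called values among these also kept their direction, while values that were not called could change sign. Under library size scaling 3 values changed sign and were called: PLT3 and BBM from dry to 6 h in water (0.98 and 0.64) and BBM between ethylene and water at 24 h (0.34). The cause was not tested. At 6 h an FDR of 0.01 left 1 of the 9 genes and 1127 of all genes called, and with the library labelled ethylene 16 h replicate 2 kept, 1 of the 9 and 203 of all. With that library kept, the same fit called 0 of the 9 genes and 3525 of all from 16 to 24 h in water, and for the change of the ethylene effect from 6 to 16 h 1 and 203. From 16 to 24 h with ethylene, relative log expression scaling called 8 of the 9 genes, where 7331 of all 19298 genes were called higher and 5551 lower. Leaving out 1 library gave 1 to 2 of the 9 genes called at 6 h. Same-numbered libraries of different groups had correlations of their deviations of -0.151 to 0.144, with 3 of 57 over 0.1, so the numbers were not taken to pair them. A replicate block changed 1 of 110 results, the MGP call from 6 to 16 h in water (-0.54, adjusted p = 0.0509). Low counts limit MGP, SHR in dry seeds and at 6 h, and PLT1 and PLT2 in dry seeds. The same alternatives were applied to the genes of the other lists after seeing the data, and none reversed a named gene.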
